A study of Arabidopsis thaliana with 6 samples.

Results

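The 46 Arabidopsis genes described here had low array intensity in seedlings grown on solvent alone and clear intensity in seedlings grown with scutellarin. They were picked from 22746 probe sets (a probe set is the group of short probes that reads a transcript), of which 13513 named 1 gene. The limits were a mean of the 3 mock arrays below 60 and a lowest scutellarin array of at least 150, on the deposited linear scale. Of 108 probe sets past both limits, 54 named 1 gene, 4 named several and 50 were not listed with a gene and stay unnamed. From the 54 genes, 8 were left out by family: 4 class III peroxidases, 2 expansins, 1 pectin methylesterase and 1 extensin. Because the limits use both groups, the difference between the groups is how the genes were chosen, and it is given below as a description without a test.

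The seedlings were whole 10-day-old plants of the Columbia background, and the RNA came from 100 seedlings per sample. In the scutellarin group (3 arrays) seeds were laid on filter paper with 100 µM scutellarin in 1% DMSO, and in the mock group (3 arrays) on filter paper with 1% DMSO, so both groups carried the solvent. Seeds of both groups had 2 days of cold (4 °C) without light before growth at 25 °C under 12 h of light a day, and were treated for 10 days. The labels give the samples of a group as independent experiments, so the spread between arrays is that between these experiments.

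Scutellarin is a flavone glucuronide, a phenolic compound of skullcaps and some other plants that Arabidopsis is not known for. Plant cells secrete many small proteins and enzymes into the wall, where they bind carbohydrates, modify pectin and cellulose, or act in defence, and root epidermal cells that grow into hairs make many of them. Foreign phenolics are commonly conjugated in the cell by glucosyltransferases and glutathione transferases.

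"Silent" is more than these data show. No detection calls were used, and whether a low reading is transcript or background cannot be told apart. The limit of 60 was not far down the scale: 36.1% of all probe sets had a mock mean below it. The limit of 150 lay near the middle, since 48.6% to 50.7% of probe sets were below it on each array. Among all probe sets, the mock means of the 46 genes stood between percentiles 2.87 and 35.9 with a median of 30.2, and their scutellarin means between percentiles 51.5 and 86.9 with a median of 61.1. SPL and AMS, anther genes not expected in seedlings, read between 1.12 and 24.1 on the scutellarin arrays and between 2.01 and 37.8 on the mock arrays, so readings in this range were seen for transcripts of another organ. The highest mock value of any of the 46 genes was 89.1 and the lowest scutellarin value 150.4, so no gene's groups overlapped, which the limits ensure (every scutellarin array lay above every mock array at 15.3% of all probe sets). In 14 of the 46 genes at least 1 mock array reached 60, and in 2 genes (AT5G60520 and AT5G37990) all 3 mock arrays read below 10. With the groups exchanged, so that the scutellarin mean was below 60 and every mock array at least 150, the same limits took 9 probe sets in place of 108.

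**Figure D1:**
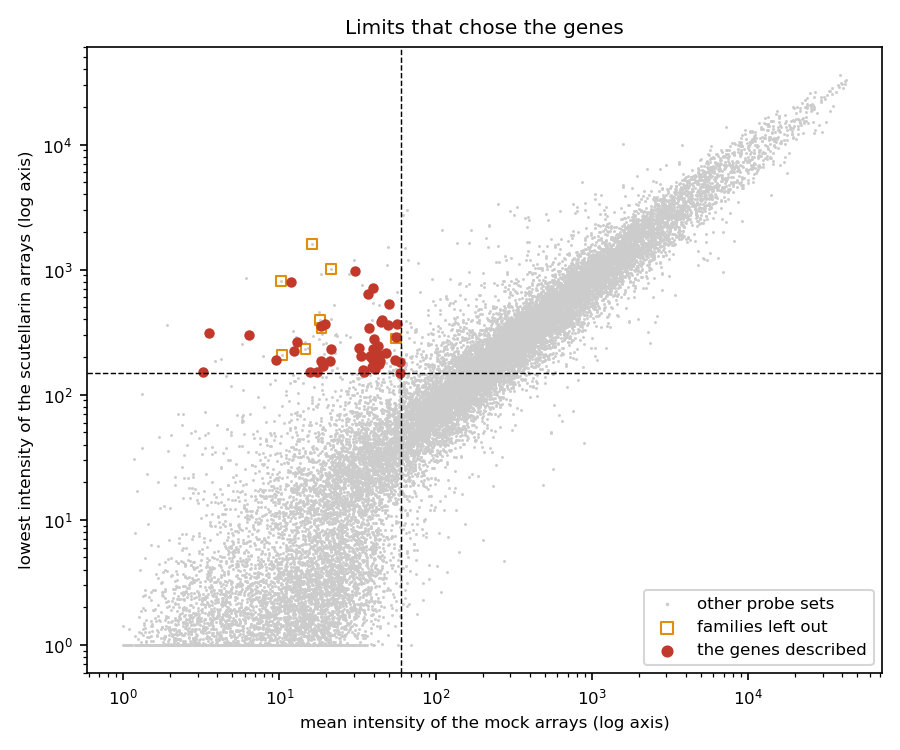
Each point is a probe set, with the mean intensity of the 3 mock arrays on the horizontal log axis and the lowest of the 3 scutellarin arrays on the vertical log axis; dashed lines are the limits of 60 and 150. The 46 genes (red) and the 8 genes of the families left out (squares) lie in the upper left field, and the grey points there are the 54 probe sets with several genes or none listed.

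By the kind of protein, 12 genes were placed among wall and secreted proteins and 3 were jacalin-type lectins. A further 8 were defence-type proteins or signal components, and 10 were enzymes of small molecules. A mixed class of 6 held carriers, proteins of cell structure and others, and 7 genes were not assigned. What a gene encodes is given from general knowledge of the Arabidopsis annotation, since the tables used here pair the genes with symbols only. Over all 46 genes the scutellarin means ranged from 166.4 to 1194 with a median of 270.9, against mock means of 3.24 to 59.3 with a median of 38.3. Differences in log2 intensity (scutellarin minus mock) ranged from 1.79 to 7.06 with a median of 3.46. Since values near 1, the floor of the scale, inflate such differences, they are also given with 32 added to each intensity before log2, and then ranged from 1.37 to 4.46 with a median of 2.32. Intensities of different probe sets are not amounts and are not compared between genes. All seedling tissues were pooled, so more cells of a type and more RNA per cell cannot be told apart.

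**Figure D2:**
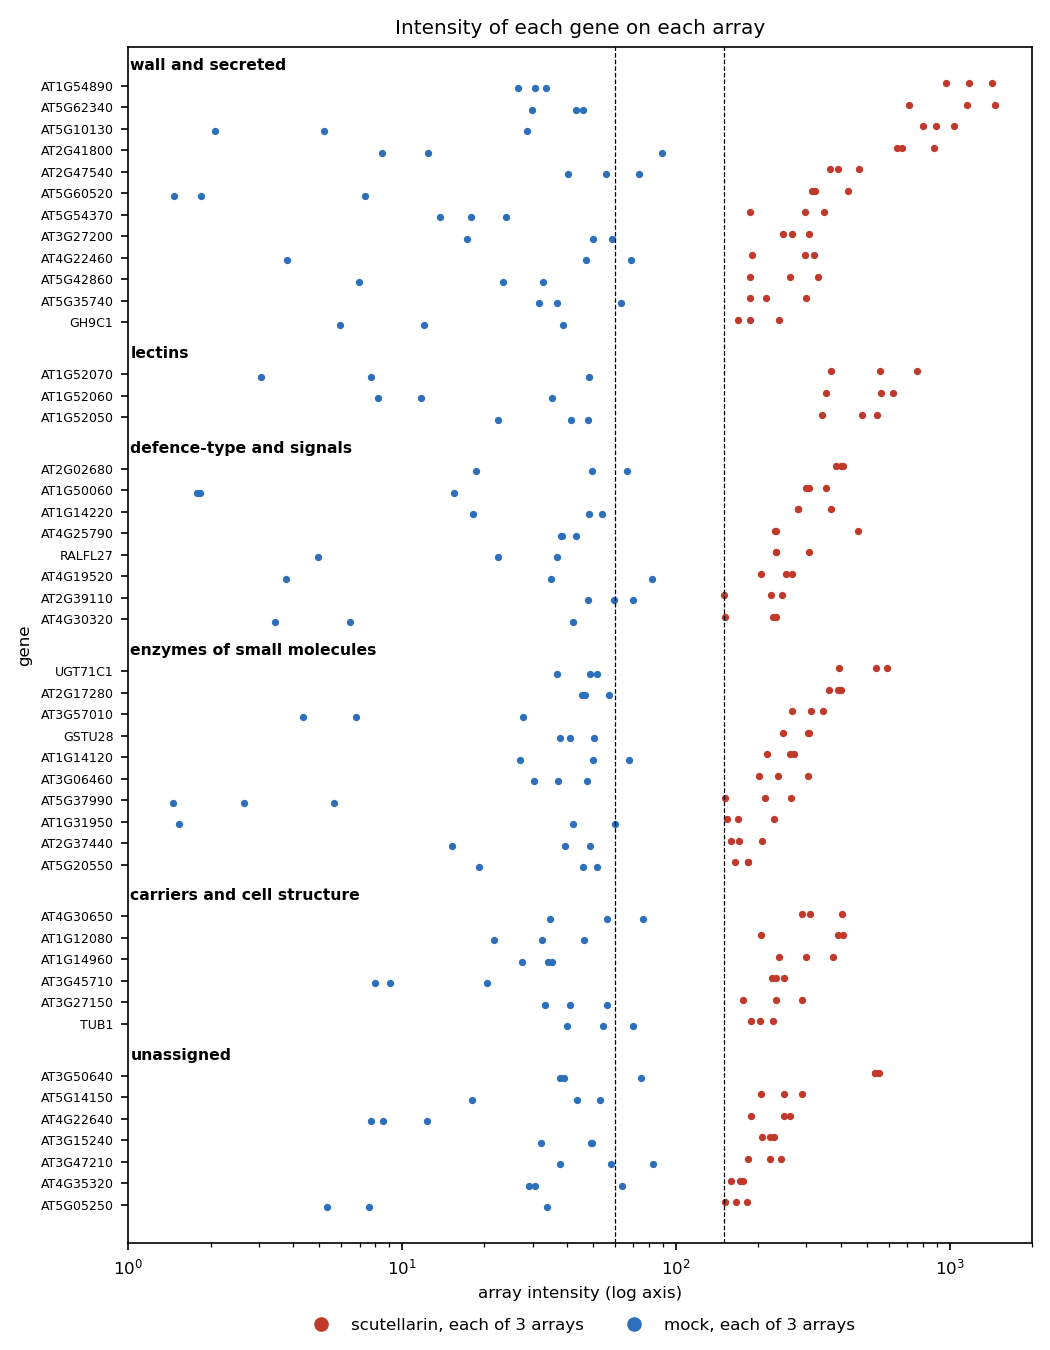
Intensity (horizontal log axis) of each of the 46 genes on the 3 scutellarin arrays (red) and the 3 mock arrays (blue), grouped by the kind of protein, with dashed lines at 60 and 150. Red and blue points do not overlap for any gene, as the limits require. In many genes the mock points spread more widely on the log axis than the scutellarin points, and in 14 genes at least 1 mock point reaches 60. Nothing is read from the unequal spread, since every scutellarin array had to reach 150 and only the mock mean was limited.

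Among the wall and secreted proteins, 3 genes encode proteins related to late embryogenesis abundant (LEA) proteins, whose role in seedlings is not established. AT1G54890 read 973.7, 1175 and 1433 on the scutellarin arrays, against 30.6, 26.6 and 33.7 on the mock arrays. All its mock values were close together, and the log2 difference was 5.29 (4.28 with 32 added). AT5G60520 read 323.7, 313.2 and 424.9 with scutellarin, against 7.34, 1.47 and 1.84 in mock, so its log2 difference of 7.02 shrank to 3.43 with 32 added. AT5G54370 read 186.3, 297.1 and 347.0 with scutellarin, against 17.9, 24.1 and 13.8 in mock.

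Of the 3 remaining LEA-related genes with a named probe set, AT5G60530, the next locus number after AT5G60520, read 149.4, 235.0 and 165.4 with scutellarin, against 6.50, 1.04 and 13.1 in mock, and missed the limit of 150 by its lowest array only. It was below the filter on low values (the lowest 30% by mean log2 intensity) and had no test. With the filter on the arithmetic mean, an alternative computed after the data were seen, it was kept and 2 of these 3 genes rose. The count was also 2 without mock replicate 1 or 2. AT5G60530 passes such a filter only through its scutellarin arrays, so nothing is read from these counts. AT3G19430 averaged 133.5 ± 19.7 with scutellarin and 29.4 ± 2.68 in mock (SD, n = 3 each). It rose by 2.18 ± 0.32 (log2, SE) with an adjusted p of 5.79e-04 in limma, a linear model fitted to all 15922 probe sets kept by the filter. The mock arrays of AT3G19430 alone would not have passed the filter. Its call thus follows in part from the filter, and nothing is read from it. AT4G27400 had a log2 difference of 0.84 ± 0.39 and did not pass (adjusted p = 0.155 in limma). In that fit 19.4% of the kept probe sets changed at an adjusted p under 0.05 (10.3% rose and 9.11% fell). Among the 8703 kept probe sets with 1 gene 18% changed (9.84% rose and 8.17% fell).

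AT5G62340 encodes a protein of the pectin methylesterase inhibitor family, which restrains the enzymes that remove methyl groups from pectin, and it was kept because an inhibitor is not a pectin methylesterase. It read 711.6, 1153 and 1469 on the scutellarin arrays, against 29.9, 45.9 and 43.4 on the mock arrays. Its scutellarin arrays differed from each other more than those of most genes here. Both genes of the Ole e 1 family, small secreted proteins first known from olive pollen, belonged to this class. AT5G10130 read 888.8, 797.1 and 1036 with scutellarin, against 5.19, 28.5 and 2.07 in mock, a log2 difference of 7.06 (4.46 with 32 added). AT2G47540 averaged 407.6 ± 53.9 with scutellarin and 56.4 ± 16.3 in mock (SD, n = 3 each).

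Another 4 genes of this class encode proteins that bind or help to build wall polysaccharides. AT2G41800, of the secreted DUF642 proteins, read 672.2, 642.1 and 880.1 with scutellarin, against 8.48, 89.1 and 12.5 in mock. Its mock replicate 2 was thus above 60 by itself and held the highest mock value of all 46 genes. AT5G35740 encodes a protein with an X8 carbohydrate-binding domain and averaged 233.5 ± 58.3 with scutellarin, against 43.8 ± 16.9 in mock. AT5G42860, which encodes a companion protein of the cellulose synthase complex, averaged 259.8 ± 71.5 with scutellarin and 21.1 ± 13.1 in mock. GH9C1 (AT1G48930) encodes an endoglucanase (glycosyl hydrolase family 9) with a cellulose-binding module that is made in root hairs, and it read 168.7, 187.5 and 239.2 with scutellarin, against 12.0, 38.8 and 5.96 in mock. The class is completed by AT3G27200, a small copper protein (cupredoxin), at 273.0 ± 29.8 with scutellarin and 42.0 ± 21.8 in mock. Last, AT4G22460, of the lipid transfer protein kind, averaged 268.9 ± 69.4 with scutellarin and 39.7 ± 32.9 in mock.

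GH9C1 was the only 1 of the 46 genes in a list of 48 root hair genes, of which 5 had a named probe set. Of the others, EXPA18 and EXPA7 are root hair expansins of a family left out above. XTH26, a wall xyloglucan enzyme, read 102.0, 141.6 and 139.6 with scutellarin, against 1.00, 1.43 and 1.50 in mock. It was below the limit of 150 and, over all arrays, below the filter. With the filter on the arithmetic mean XTH26 was kept through its scutellarin arrays only. The count then was 4 genes, and nothing is read from XTH26 being called. SCN1, a regulator of where hairs start, differed by 0.00 ± 0.12 (log2, SE; adjusted p = 0.996 in limma). GH9C1, EXPA18 and EXPA7 were past the threshold among the 4 kept, and since the limits that took these 3 use the same contrast nothing is read from that count. Root markers outside hairs went both ways. Of 19 listed, 4 had a named probe set: PYK10 and AT3G22620 rose and the cortex genes AT1G09750 and AT1G62500 fell. Leaf genes of photosynthesis fell in 4 of the 4 named of 8 listed, where 8.17% of kept probe sets with 1 gene fell. The number of leaf genes that fell was 3 with quantile normalization, no filter or no variance trend. It was also 3 without replicate 2 or replicate 3 of either group. Summed over its named genes, the list of root markers outside hairs read 12971 to 15580 on the scutellarin arrays, against 8402 to 9807 on the mock arrays, and most of this sum was PYK10. The 3 genes other than PYK10 summed to 2807 to 3308 with scutellarin, against 2490 to 3934 in mock, so these ranges overlapped. The summed leaf list read 31491 to 38285 with scutellarin, against 49860 to 51388 in mock. The part of tissue make-up in the values of the 46 genes was not tested.

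Among the other GH9 genes, 14 had a named probe set and 5 were kept. Of these, 3 rose and 2 did not pass, where 9.84% of kept probe sets with 1 gene rose. The mock arrays of GH9B8, 1 of the 3, would not have passed the filter alone. No tendency is read from the count. GH9B13 averaged 337.3 ± 31.2 with scutellarin and 89.6 ± 28.1 in mock, a rise of 1.96 ± 0.26 (adjusted p = 2.64e-04 in limma). GH9B7 rose by 0.93 ± 0.13, and GH9B8 by 2.68 ± 0.69, a call lost without scutellarin replicate 1 or 3 (adjusted p = 0.0514 and 0.0691 in limma). GH9B8 read 121.7, 88.0 and 138.7 with scutellarin, against 4.91, 22.3 and 51.6 in mock, and the size of its difference varied with them: 1.75 without mock replicate 1, 3.45 without mock replicate 3 and 1.41 with 32 added. The 9 GH9 genes below the filter read at most 54.7 on any array of either group.

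The 3 lectin genes lie next to each other in the genome: AT1G52050, AT1G52060 and AT1G52070 follow one another in the gene order of assembly TAIR10.1. They encode jacalin-type lectins, carbohydrate-binding proteins of which this plant has many. AT1G52070 read 370.1, 758.4 and 556.7 with scutellarin, against 7.68, 48.0 and 3.07 in mock. AT1G52060 read 353.9, 623.0 and 562.5 with scutellarin, against 35.4, 11.7 and 8.15 in mock. AT1G52050 read 342.3, 543.6 and 478.7 with scutellarin, against 41.4, 22.4 and 47.6 in mock. In all 3 genes scutellarin replicate 1 was the lowest and replicate 2 the highest of the scutellarin arrays. No probe set of the 3 carried a suffix that marks possible cross-hybridisation, and whether these related neighbours share probe signal was not tested.

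Lectin genes of the same stretch did not all go this way. AT1G52000 read 28.3, 70.8 and 22.3 with scutellarin, against 170.9, 181.5 and 207.9 in mock, and fell by 2.39 on the log2 scale with an SE of 0.40 (adjusted p = 0.00141 in limma). It was 1 of only 2 named genes taken by the exchanged limits, and the other was AT4G37290. AT1G52100 averaged 1349 ± 399 with scutellarin and 2312 ± 276 in mock and fell by 0.81 on the log2 scale (SE 0.19, adjusted p = 0.0107 in limma). AT1G52080, directly after the 3 genes and not a lectin gene, differed by 0.26 ± 0.36 and did not pass (adjusted p = 0.66 in limma).

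Among the defence-type proteins, 3 genes encode CAP proteins, a secreted family that includes the pathogenesis-related protein PR1. AT1G50060 read 298.0, 307.2 and 354.1 on the scutellarin arrays, against 15.6, 1.83 and 1.78 on the mock arrays, a log2 difference of 6.43 (3.21 with 32 added). AT4G25790 read 231.0, 233.2 and 462.3 with scutellarin, against 43.1, 38.1 and 38.5 in mock, so replicate 3 was well above the other scutellarin arrays. AT4G30320 read 151.7, 231.7 and 226.5 with scutellarin, against 42.0, 3.44 and 6.47 in mock.

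The CAP family as a whole was mixed. Besides these 3 genes, 16 of the family's members had a named probe set, and 5 of the 16 were kept. AT4G07820 and AT5G66590 rose, by 1.32 ± 0.23 and 1.44 ± 0.20 (log2, SE). AT4G33730 read 125.2, 147.2 and 139.0 with scutellarin, against 2.24, 21.4 and 18.7 in mock, and was the third called. Its mock arrays alone would not have passed the filter, which also holds for AT3G19430 and GH9B8, so that the calls of these 3 genes follow in part from the filter and support nothing. Its log2 difference of 3.83 was 1.90 with 32 added, and it dropped below the filter without any 1 of the scutellarin arrays. AT4G25780 fell by 0.77 and AT2G19970 fell by 0.84 on the log2 scale. With the filter on the arithmetic mean 4 of the family's other genes rose and 3 fell. That filter can keep a gene through high arrays of 1 group only, so nothing is read from these counts. The call of AT4G25780 was lost without any of the mock arrays or without scutellarin replicate 3 (adjusted p = 0.0655 to 0.127 in limma), and without scutellarin replicate 3 its difference was -0.46. For AT2G19970 the adjusted p in limma was 0.0578 to 0.0930 when any of 4 arrays was left out, namely replicates 2 and 3 of mock and replicates 1 and 2 of scutellarin. Among the 11 below the filter, AT4G31470 read 125.5, 117.8 and 152.5 with scutellarin, against 2.43, 6.09 and 6.21 in mock. AT4G33720 went the other way, with 3.39, 7.18 and 32.7 with scutellarin, against 37.0, 141.5 and 94.2 in mock.

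**Figure D3:**
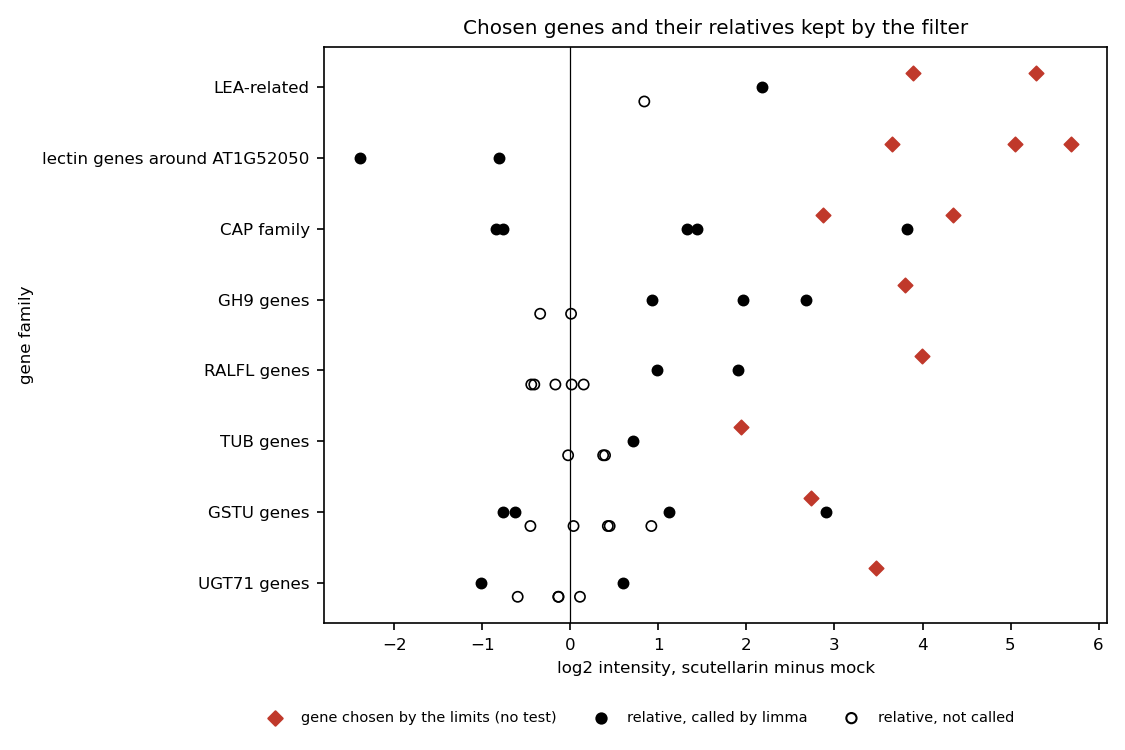
Log2 difference (scutellarin minus mock, horizontal axis) of the chosen genes (red diamonds) and of their relatives that passed the filter on low values, filled where limma called them at an adjusted p under 0.05 and open where it did not; AT5G60520 and AT1G50060 are below the filter and not drawn. The relatives of the lectins lie below 0, those of the CAP family on both sides, those of GSTU28 from -0.77 to 2.90, those of TUB1 from -0.03 to 0.71 and those of UGT71C1 from -1.01 to 0.60.

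Other genes of this class were placed in it by the kind of protein, and a role in defence or signalling was not tested. AT2G02680, which encodes a protein rich in C1 domains (cysteine and histidine zinc-binding domains), read 407.8, 383.7 and 401.5 with scutellarin, against 18.7, 66.4 and 49.4 in mock. AT1G14220, a secreted ribonuclease of the T2 family, read 280.0, 279.4 and 368.1 with scutellarin, against 18.2, 48.4 and 53.7 in mock. AT4G19520 encodes an intracellular immune receptor of the TIR-NBS-LRR kind and averaged 241.2 ± 32.1 with scutellarin, against 40.2 ± 39.2 in mock, where its arrays ranged from 3.76 to 81.7. AT2G39110, a receptor-like cytoplasmic kinase gene, stood nearest to the scutellarin limit and close to the mock limit, with 150.4, 221.9 and 245.1 with scutellarin, against 59.7, 47.9 and 69.9 in mock.

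RALFL27 (AT3G29780) encodes a RALF peptide, a kind of secreted signal that acts on cell expansion through receptor kinases at the wall. It read 231.5, 307.7 and 232.4 on the scutellarin arrays, against 22.4, 4.92 and 36.8 on the mock arrays. Of 10 further RALFL genes with a named probe set, 7 were kept and 2 rose. RALFL22 averaged 1272 ± 155 with scutellarin and 339.2 ± 41.7 in mock, a rise of 1.91 ± 0.15 (adjusted p = 6.62e-06 in limma). RALFL32 rose by 0.99 ± 0.13 (adjusted p = 3.56e-04 in limma). The other 5 kept genes lay between -0.44 and 0.15 and did not pass.

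Of the enzymes of small molecules, UGT71C1 (AT2G29750) adds glucose to phenolic compounds, flavonoids among them. It read 590.8, 393.5 and 540.2 with scutellarin, against 36.7, 48.6 and 51.6 in mock, a log2 difference of 3.47 (2.79 with 32 added). Its neighbour in gene order, UGT71C2, averaged 294.4 ± 25.7 with scutellarin and 194.2 ± 14.6 in mock, a rise of 0.60 ± 0.17 that was lost without any 1 of the 6 arrays (adjusted p = 0.0301, and 0.0553 to 0.0943 without an array, in limma). Among the 8 other UGT71 genes named, 6 were kept: UGT71C2 rose, UGT71B6 fell by 1.01 on the log2 scale (SE 0.22, adjusted p = 0.00780 in limma) and 4 did not pass. Without scutellarin replicate 1 the falls numbered 2.

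GSTU28 (AT1G53680) encodes a tau class glutathione transferase, an enzyme that joins glutathione to foreign and reactive compounds. It read 304.6, 247.4 and 307.8 with scutellarin, against 37.8, 50.1 and 41.2 in mock. Of 9 other GSTU genes kept, 2 rose, 2 fell and 5 did not pass. Only 1 fall was called without mock replicate 1, mock replicate 2 or scutellarin replicate 3. With no variance trend 3 rose and 1 fell. GSTU25, which had the larger change of the 2 that rose with the trend, was not low in mock. It averaged 388.3 ± 29.5 there and 2897 ± 234 with scutellarin.

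Further enzymes of this class act on a range of compounds. AT2G17280, which encodes a phosphoglycerate mutase-like protein, read 392.4, 362.2 and 401.4 with scutellarin, against 56.8, 46.6 and 45.6 in mock. AT3G57010 encodes a strictosidine synthase-like protein, a family named for an enzyme of alkaloid synthesis in other plants, and read 311.2, 343.5 and 265.6 with scutellarin, against 4.37, 27.8 and 6.77 in mock. AT1G14120 and AT5G20550 encode dioxygenases that need iron and 2-oxoglutarate, and their log2 differences were 2.46 and 2.31. AT1G14130, which stands next to AT1G14120 and encodes a related dioxygenase, differed by -0.31 and did not pass (adjusted p = 0.23 in limma).

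AT5G37990, a gene of the SABATH methyltransferases that methylate small acids, read 151.7, 264.5 and 211.2 with scutellarin, against 2.64, 1.46 and 5.63 in mock, so that its log2 difference of 6.19 became 2.75 with 32 added. AT3G06460, of the ELO-type fatty acid elongases, averaged 247.1 ± 51.3 with scutellarin and 38.3 ± 8.70 in mock. The terpene synthase gene AT1G31950 averaged 183.4 ± 39.0 with scutellarin and 34.6 ± 30.02 in mock, with single mock arrays between 1.54 and 60.1. AT2G37440, of the inositol polyphosphate 5-phosphatase family, averaged 178.4 ± 24.4 with scutellarin and 34.4 ± 17.3 in mock.

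In the mixed class of carriers, proteins of cell structure and others, AT4G30650 encodes a small hydrophobic membrane protein of the kind induced by cold and salt. It read 289.5, 309.9 and 405.3 with scutellarin, against 76.0, 34.8 and 55.9 in mock. AT1G12080, annotated as related to vacuolar calcium-binding proteins, read 205.4, 406.8 and 390.8 with scutellarin, against 21.6, 32.4 and 46.2 in mock. Scutellarin replicate 1 gave its lowest scutellarin value, and did so in 25 of the 46 genes, the lectin genes included. AT1G14960, of the major latex protein kind that share the Bet v 1 fold, read 298.8, 238.1 and 375.9 with scutellarin, against 34.1, 35.3 and 27.4 in mock. AT3G45710, a membrane transporter gene of the NRT1/PTR family, averaged 235.2 ± 12.0 with scutellarin and 12.5 ± 6.87 in mock. AT3G27150, which encodes an F-box protein with kelch repeats, averaged 232.1 ± 56.1 with scutellarin and 43.5 ± 11.6 in mock.

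TUB1 (AT1G75780), a beta-tubulin gene, had the smallest log2 difference of this class, at 1.94 (1.46 with 32 added), with 188.7, 225.8 and 202.7 with scutellarin, against 54.3, 69.9 and 40.2 in mock. Of 4 other TUB genes, all kept, TUB9 rose by 0.71 ± 0.13 (adjusted p = 0.00319 in limma) and 3 did not pass. AT1G75770, the gene before TUB1 in gene order, averaged lower with scutellarin and fell by 1.07 on the log2 scale (SE 0.27, adjusted p = 0.0167 in limma), a call lost without mock replicate 2 or 3 (adjusted p = 0.0537 and 0.0606 in limma).

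Of the 7 unassigned genes, AT3G50640 read 532.1, 536.0 and 554.2 on the scutellarin arrays, against 39.0, 37.7 and 74.5 on the mock arrays, so its scutellarin arrays were nearly equal. AT5G14150 read 288.2, 249.0 and 204.6 with scutellarin, against 52.9, 18.1 and 43.7 in mock. AT4G22640 read 261.9, 188.4 and 248.8 with scutellarin, against 12.4, 8.51 and 7.70 in mock. The remaining 4 were AT3G15240, AT3G47210, AT4G35320 and AT5G05250, with log2 differences of 2.35, 1.92, 2.14 and 3.90. Unassigned means that no class was given here, and such a gene may still belong to a family named above. AT3G15240 was the only 1 of the 46 genes with a second probe set naming it, and this read 78.1, 84.2 and 29.98 with scutellarin, against 4.27, 4.33 and 5.56 in mock, higher on every scutellarin array than on any mock array but below the limit of 150.

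The limits cut through a continuous range. Just inside the mock limit stood AT3G47210, with a mock mean of 59.3, AT2G39110 with 59.2 and AT2G47540 with 56.4. Just outside it stood AT4G28890 with 63.4, AT5G49770 with 64.5 and AT4G02090 with 64.7. Just inside the scutellarin limit, the lowest arrays were 150.4 for AT2G39110, 150.7 for AT5G05250 and 151.7 for AT5G37990. Just outside it they were 149.7 for AT5G59930, 149.4 for AT5G60530 and 149.3 for AT3G47980. With the stricter limits of 30 and 300 only AT5G60520, AT5G10130, AT1G52060 and AT1G52070 were left.

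The 3 scutellarin arrays did not read the 46 genes alike, and the order of the arrays is something the limits did not set. Scutellarin replicate 3 gave the highest of the 3 values in 27 genes, replicate 2 in 13 and replicate 1 in 6. Among the 8055 probe sets whose scutellarin mean lay in the same range, replicate 3 was highest in 27.1%, replicate 2 in 40.1% and replicate 1 in 32.8%. In the wall and secreted class replicate 3 was highest in 11 of 12 genes, the exception being AT3G27200, and it was highest in 8 of the 8 genes of the families left out. Relative to a gene's own scutellarin mean, replicate 3 had a median of 120.2% in the wall and secreted class and 104.6% among the enzymes of small molecules, against 97.7% over the 8055 probe sets. Lectin genes had their own order, with 69.0%, 121.4% and 105.3% in replicates 1 to 3. These are medians over genes read on the same 3 arrays, so genes of a class are not independent, and no test is given.

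**Figure D4:**
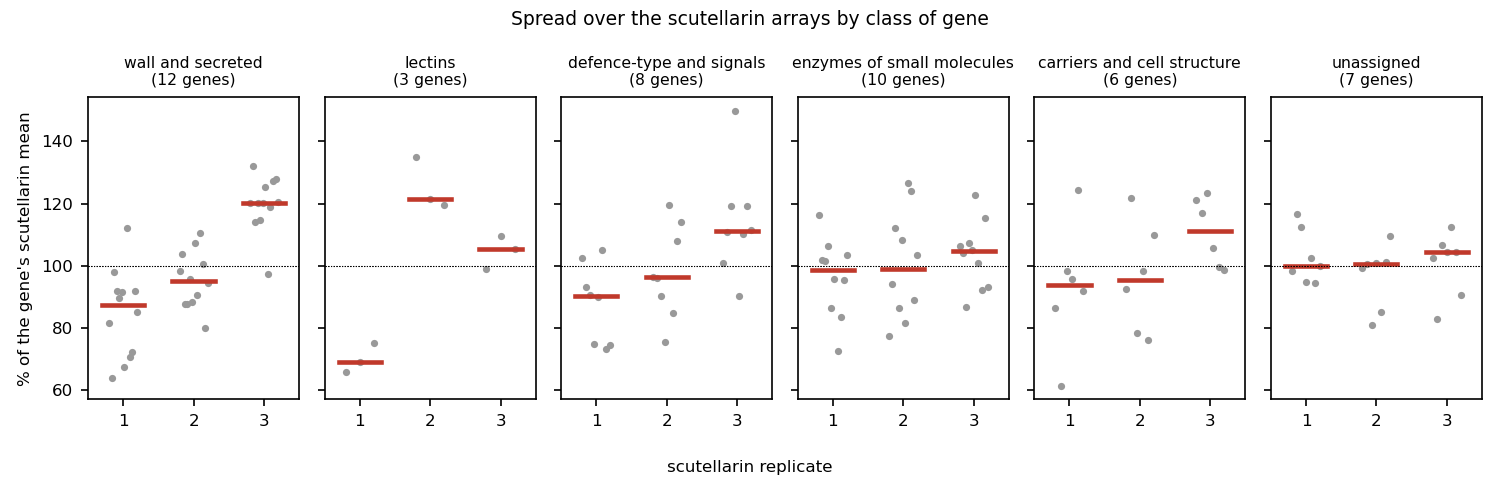
For each class of gene, the intensity on each of the 3 scutellarin arrays as a percent of the gene's own mean over these arrays (vertical axis); grey points are genes, red bars are medians and the dotted line is 100%. Wall and secreted genes are highest on replicate 3 (median 120.2%), lectin genes on replicate 2 (median 121.4%), and the enzymes and unassigned genes have medians near 100% on all arrays.

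None of the 46 genes stood directly next to another in gene order apart from the 3 lectin genes, and longer distances were not examined. They lay on all 5 nuclear chromosomes, with 28.3%, 15.2%, 19.6%, 15.2% and 21.7% of them on chromosomes 1 to 5, against 25.8%, 16.4%, 20.6%, 14.6% and 22.5% of all named genes. Their nearest protein-coding neighbours numbered 88, of which 51 had a named probe set and 30 were kept. Of the 30, 4 rose, 2 fell and 24 did not pass, beside shares of 9.84% and 8.17% over kept probe sets with 1 gene, and the median difference of the 30 was -0.02, against -0.04 over all kept probe sets.

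The 4 neighbours that rose were mostly relatives of the gene they stand beside. AT4G30660 encodes the same kind of small membrane protein as AT4G30650 and rose by 0.94 ± 0.19 (adjusted p = 0.00468 in limma). AT1G14210 is a T2 ribonuclease gene like AT1G14220 and rose by 0.74 ± 0.16 (adjusted p = 0.00742 in limma). UGT71C2 was given above. AT2G47550, a gene of the pectin methylesterase family beside AT2G47540, read 441.0, 452.4 and 502.5 with scutellarin, against 64.7, 137.6 and 119.5 in mock, and rose by 2.19 ± 0.26 (adjusted p = 1.27e-04 in limma). Relatives at a neighbouring place also fell or stayed low: AT4G25780 beside AT4G25790 fell, as given above, and AT1G50050 beside AT1G50060, both CAP genes, read 43.1, 25.4 and 16.2 with scutellarin, against 3.32, 3.80 and 4.32 in mock. Others did not pass, among them AT1G14130 beside AT1G14120, as given above. AT3G57020 beside AT3G57010 differed by -0.21 and AT3G06470 beside AT3G06460 by 0.06 (adjusted p = 0.385 and 0.817 in limma). Kinship was not counted over all 30 kept neighbours, so no tendency of relatives is read from these pairs.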

How the data were processed

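Transcripts were measured on 6 Affymetrix ATH1 arrays, 3 per group. The deposited values are linear probe set intensities, summarised with MAS5 per the submitters' processing notes (version and settings not given in the sources used here). On every array the lowest value was 1, and the mean without 2% of values at each end lay between 493.6 and 494.9, so the deposited intensities appear to have been scaled between arrays. Array medians lay between 144.8 and 162.3.

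Probe sets were named from the platform annotation, updated by gene ID to the RefSeq table of TAIR10.1 (13436 of 13513 matched); 503 named several genes and 8730 were not listed. That table gave gene order and no coordinates are printed, since the array's build is not named. Promoter and protein sequences were not used here. Families and classes were assigned by hand.

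For genes outside the choice, log2 intensities without further normalization were fitted in limma 3.58.1 (R 4.3.3; lmFit, eBayes with a variance trend, two-sided, Benjamini-Hochberg over all 15922 probe sets kept), leaving out the lowest 30% by mean log2 intensity. This filter was first run on the arithmetic mean of the 6 arrays; the mean of log2 values was taken in its place after the counts of both had been seen, and the arithmetic mean is kept as an added alternative. Of the 46 genes, 43 were kept; AT5G60520, AT1G50060 and AT5G37990 were not. A probe set is said to rise or fall at an adjusted p under 0.05. For a gene with several probe sets in a list, that of highest mean was used. The number of arrays limits the precision.

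The members, lists and families were chosen with earlier results of these data known. The rule for values on every array took up to 3 genes per class with the highest scutellarin mean, those nearest the limits and those in the root hair list; AT5G60520, AT5G54370, AT2G41800, AT4G25790, AT4G30320, RALFL27, GSTU28 and TUB1, the relatives and the neighbours were added after their values were seen. Of 114 entries in 6 lists, 111 matched their symbol in the RefSeq table and 17 had a named probe set. Patterning of the root epidermis kept 1 gene (TRY, not called), flower organs and pollen none, and seed 1 (PAP85, fell).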

Additional observations from a re-analysis of the deposited data

How the results depend on the processing

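In place of the 46 genes, quantile normalization gave 46 (43 shared) and median centring 48 (45 shared). Asking for every mock array below 60 gave 32, the mean of the scutellarin arrays at 150 gave 66, and limits of 30 and 300 gave 4. Without 1 array the number lay between 44 and 56. Leaving out a scutellarin array cannot lose a gene, since the limit is on the lowest of these arrays. All 46 were then shared by construction. Without mock replicate 2 or 3, 42 and 44 were shared. In limma 3094 probe sets changed (1644 rose, 1450 fell). Without 1 array the total lay between 2035 (without mock replicate 2) and 2836, rises between 1127 and 1408, and falls between 801 (without mock replicate 2) and 1450, and falls were 933 and 940 when replicate 3 of mock or of scutellarin was left out. Without the variance trend 862 fell. Median centring gave 1425 rises of 3046. The filter on the arithmetic mean, run before the one on log2 values was chosen with both counts seen, gave 3170 changed (1710 rose, 1460 fell) and 4 root hair genes, the added 1 being XTH26. XTH26 passes that filter only through its scutellarin arrays, so nothing is read from the added call. Of the root hair list 3 genes passed, 0 with the lowest 50% left out, which removes low probe sets by construction, and 2 to 3 without 1 array. No label says that equal replicate numbers share an experiment, so no pairing was used. Same-numbered arrays also did not deviate together (correlations of deviations of -0.04, -0.09 and 0.11). With a replicate block 2921 probe sets changed, and 3 root hair genes passed. Of 21 genes outside the choice, 281 of 305 values under the alternatives kept their call, 24 lost it and 0 reversed, and 10 more could not be had because the gene dropped below the filter (5 of them of AT4G33730); GH9B8 and AT1G52100 lost it with no variance trend (adjusted p = 0.0599 and 0.0604 in limma), as did AT4G25780 and AT2G19970 (0.106 and 0.0561), and AT1G75770 and AT4G25780 with no filter (0.0518 and 0.0579). The cause was not tested.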
